A study of Mus musculus with 10 samples.

Results

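The mitochondrial ribosomal protein genes, here the Mrp genes, were taken as every gene with an array probe whose symbol begins with Mrpl (large subunit) or Mrps (small subunit) followed by a number. This gave 132 of 45281 probes and 76 of 19057 genes, of which 48 encode large-subunit and 28 encode small-subunit proteins by their symbols. At least 1 probe was detected on at least 1 array for 73 of the 76 genes, and these 73 were tested. A single probe each read Mrps14 and Mrpl32, a pair read Mrpl19, and none of these was detected on any array. Membership was set by the gene symbol, with no threshold on a measured value.

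The mitochondrial ribosome translates the few proteins that the mitochondrial genome encodes, all of them subunits of the respiratory chain and the ATP synthase. Its RNAs come from the mitochondrial genome, whereas all of its proteins are encoded in the nucleus, made in the cytosol and imported. Many of these proteins have bacterial counterparts, and others are found only in mitochondrial ribosomes.

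The data come from 4T1, a mouse mammary carcinoma line that forms spontaneous metastases in BALB/c mice. Per the methods, the inoculated cells carried a luciferase tag. Sublines were then isolated independently from brains with metastases (B, n = 4), from lungs with metastases (L, n = 3) and from primary tumours (P, n = 3) and were passaged in culture before total RNA was hybridised to Illumina mouse whole-genome bead arrays, 1 array per subline. All groups therefore share the line, the tag and the culture step, and they describe cultured cells after isolation and not tissue.

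At a detection p of 0.01 or less, 14796 to 15563 probes were detected per array in B, 14764 to 14938 in L and 14218 to 14635 in P. Every P array thus had fewer detected probes than every B and L array. Of 8 epithelial markers, 7 were detected on at least 1 array. All 7 were found on every L and P array and 4 to 7 on the B arrays, while Epcam was not detected on any. Markers of endothelial cells (0 of 5) and of lymphocytes (0 of 4) were not detected, and of 9 macrophage and microglia markers only P2ry12 was, on L arrays only. Of 7 astrocyte markers only Gja1 was detected, of 6 neuronal markers Tubb3 and Map2, of 5 oligodendrocyte markers Mbp and of 5 lung epithelium markers Ager. Of 7 fibroblast and pericyte markers 4 were detected (Pdgfra, Pdgfrb, Dcn and Thy1). The summed normalised level of that list was 802 to 3005 in B, against 497 to 740 in L and 270 to 398 in P. Its part in the differences described here was not tested, and in bulk RNA a smaller number of cells of a type cannot be told apart from less RNA per cell.

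Promoter sequences are shown for the Mrp gene with the largest fall in B against P (Mrpl16), the Mrp gene that moved the other way (Mrps6), a large-subunit gene whose promoter holds matches to several motifs (Mrpl17), and the interval between 2 Mrp genes that start head to head (Mrps11 and Mrpl46). All are RefSeq sequences of build GRCm38.p6, given 5′ to 3′ on the strand of the named gene. The first 3 are the 250 bases before the start site, at chr19:11770165-11770414 on the plus strand for Mrpl16, chr7:105811088-105811337 on the minus strand for Mrpl17 and chr16:92058086-92058335 on the plus strand for Mrps6. The interval is the 41 bases at chr7:78783090-78783130, read on the plus strand towards Mrps11. Capitals mark matches to any of 6 motifs, searched on both strands.
Mrpl16: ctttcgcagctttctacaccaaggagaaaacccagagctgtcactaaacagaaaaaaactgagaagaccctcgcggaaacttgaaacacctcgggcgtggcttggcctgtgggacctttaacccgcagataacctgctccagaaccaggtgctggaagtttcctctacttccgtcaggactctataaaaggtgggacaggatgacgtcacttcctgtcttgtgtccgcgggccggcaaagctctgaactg
Mrpl17: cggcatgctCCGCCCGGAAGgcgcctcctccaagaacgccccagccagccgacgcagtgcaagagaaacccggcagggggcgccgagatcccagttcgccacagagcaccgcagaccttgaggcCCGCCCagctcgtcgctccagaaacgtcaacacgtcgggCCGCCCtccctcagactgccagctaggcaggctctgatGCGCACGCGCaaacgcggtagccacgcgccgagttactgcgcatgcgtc
Mrps6: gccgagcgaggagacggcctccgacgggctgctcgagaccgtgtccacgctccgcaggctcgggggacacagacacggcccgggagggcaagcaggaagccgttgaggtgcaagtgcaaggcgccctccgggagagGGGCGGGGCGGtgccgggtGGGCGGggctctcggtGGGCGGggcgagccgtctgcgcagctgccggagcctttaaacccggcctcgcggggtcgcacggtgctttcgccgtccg
Mrps11 and Mrpl46: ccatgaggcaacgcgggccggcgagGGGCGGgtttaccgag

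The motifs were those of NRF1 (GCGCA, then any base, then GCGC), of the ETS family that includes GABP (CCGGAAG), of YY1 (AAGATGGCG), the E-box (CACGTG), the GC-box (GGGCGG) and the CCAAT box (CCAAT). NRF1, GABP and YY1 are known as regulators of nuclear genes for mitochondrial proteins, and MYC binds the E-box. No letters of the Mrpl16 stretch matched, Mrpl17 had 5 matches (3 GC-boxes, 1 ETS and 1 NRF1), Mrps6 had 4 GC-boxes, the first 2 of them overlapping, and the 41-base interval had 1 GC-box. Over the window of 250 bases before to 50 bases after the start, which is longer than the stretches printed, 67 of the 76 Mrp genes had a sequence, as did 27025 genes in all. The ETS motif was present in 26 Mrp promoters (38.8%), against 9.9% of all promoters. The NRF1 motif was present in 13 (19.4%, against 5.2%) and the YY1 motif in 8 (11.9%, against 1.6%). The GC-box was in 33 (49.3%, against 38.2%), the CCAAT box in 25 (37.3%, against 41.1%) and the E-box in 5 (7.5%, against 8.1%). All promoters here include those of noncoding genes, and a match is a match of letters only.

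Some Mrp genes start head to head with another gene. A start on the opposite strand lay within 1000 bases upstream for 25 of the 67, and for 23 of these the neighbour was protein-coding. The share of all genes with such a neighbour was not counted, so the figure has no background beside it. Mrpl46 and Mrps11 start 42 bases apart, Mrpl43 starts 116 bases from Twnk, the mitochondrial DNA helicase, and Mrps12 starts 147 bases from Sars2, the mitochondrial seryl-tRNA synthetase.

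On the scale used throughout, a value is the log2 of the background-corrected and quantile-normalised intensity of 1 probe, and each gene is read by its most variable detected probe. The values of different probes are not comparable as amounts of RNA. Across the 73 genes the mean probe value over the arrays was 5.50 to 12.89, with a median of 10.30. Over all 115 detected Mrp probes, the brightest were 1 probe each for Mrpl13 (mean 13.28), Mrpl33 (12.89) and Mrps24 (12.83), and the dimmest were for Mrpl1 (5.13), Mrps10 (5.32) and Mrps5 (5.50). Mrpl13 was thus bright by 1 probe, whereas its most variable probe, the one tested, was detected on 5 of the 10 arrays. Detection was complete for 69 of the 73 genes, and the other 4 were Mrpl13, Mrpl15 (8 arrays), Mrpl51 (7) and Mrps5 (2).

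The Mrp genes were lower as a group on the B arrays. For the 69 genes detected on every array, the median difference from each gene's mean over the arrays was -0.12, -0.08, -0.21 and -0.17 on the B arrays, against 0.07, 0.08 and 0.02 on the L arrays and 0.28, 0.10 and 0.08 on the P arrays. All B arrays lay below all L and P arrays, L3 was the lowest of the others, and P1 stood above the rest. The same median over all 7431 genes detected on every array stayed between -0.02 and 0.03. Averaged over arrays, the Mrp median was -0.15 ± 0.06 in B (SD, n = 4), 0.06 ± 0.03 in L (n = 3) and 0.15 ± 0.11 in P (n = 3).

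**Figure D1:**
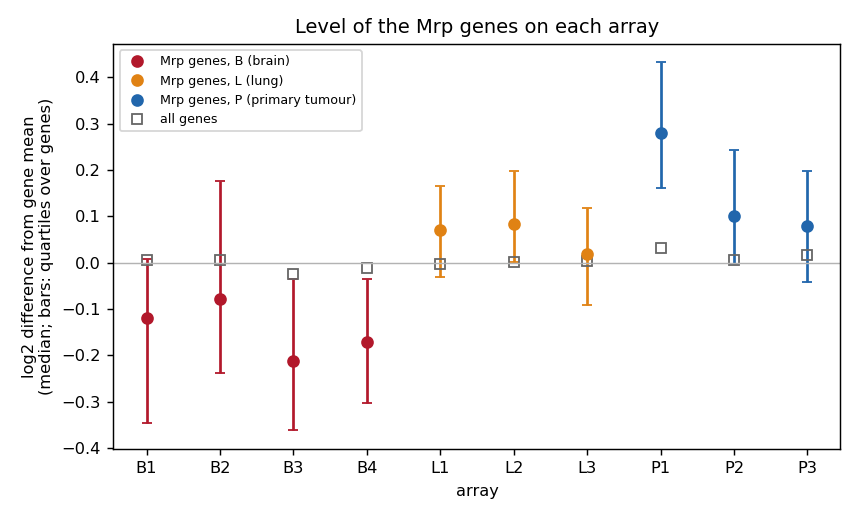
Median over 69 Mrp genes of the log2 difference from each gene's mean over the 10 arrays (y axis), for each array (x axis), with bars for the quartiles over genes and open squares for the median of all 7431 genes. The 4 B arrays lie between -0.21 and -0.08, below the L and P arrays, and P1 is highest at 0.28.

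The number of Mrp genes below their own mean was 51, 40, 57 and 56 of 69 on the B arrays, against 22, 16 and 30 on the L arrays and 3, 18 and 22 on the P arrays. Subunits were split here by symbol, so that Mrps30 counts as small. The 43 large-subunit genes had a lower median than the 26 small-subunit genes on B1 (-0.25 for large and -0.09 for small) and on B2 (-0.14 and 0.00). The subunits were closer to each other on B3 (-0.22 for large and -0.19 for small) and on B4 (-0.17 and -0.16). Within groups, single Mrp genes varied less than genes in general, with a median SD of 0.21 in B (0.26 for all genes), 0.12 in L (0.17) and 0.16 in P (0.18). All genes were not matched to the Mrp genes by probe level here.

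**Figure D2:**
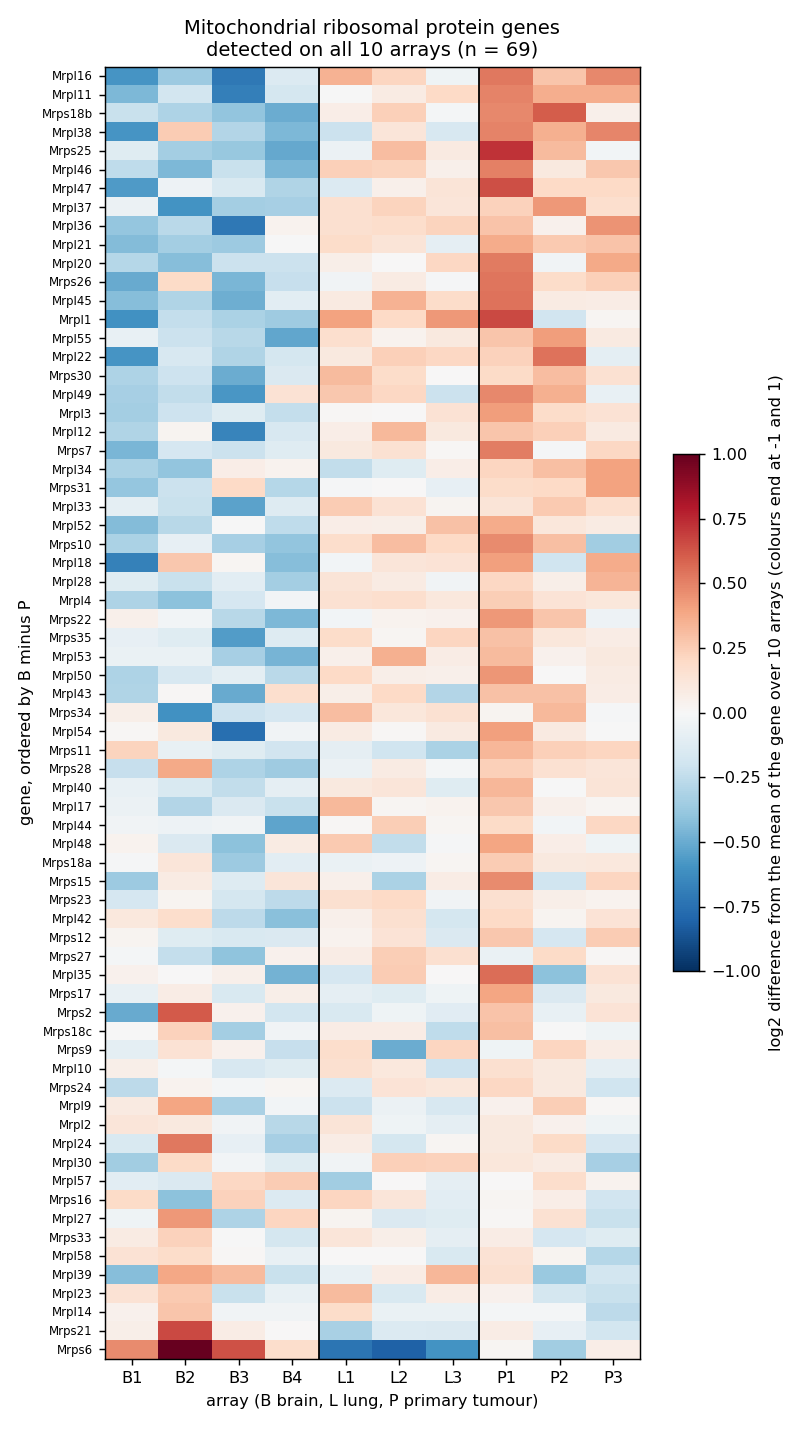
Each row is 1 of the 69 Mrp genes detected on every array and each column an array; colour gives the log2 difference from the gene's mean over the arrays, ending at -1 and 1. Most rows are blue on the B arrays, the bottom row is Mrps6, which is red on all B arrays, and P1 is the column with the most red.

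B against P asks how the brain-derived sublines differ from those of the primary tumour. Of the 73 Mrp genes, 6 fell, none rose and 67 did not pass the test (limma, Benjamini-Hochberg over the 9352 genes tested, adjusted p under 0.05). Across all genes 14.4% passed, 6.91% as lower, so the 8.22% of Mrp genes that fell was close to the background, while the 0 that rose stood against 7.53%. A count of 0 rose also by the methods' t-test after the same adjustment. At an unadjusted p under 0.05, 1 Mrp gene (Mrps6) was higher, as were 15.9% of all genes. The direction was more uniform than the calls. The difference was below 0 for 63 of 73 (86.3%, against 50.5% of all genes), and 29 were lower at an unadjusted p under 0.05 (39.7%, against 16.2%). The median log2 difference was -0.34 over the Mrp genes and -0.01 over all genes, and single Mrp genes ranged from -0.88 to 0.69. Every B array was below every P array for 32 of the 73 genes (15.7% of all genes showed this) and above every P array for 1 (14.7%).

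Mrpl16, a large-subunit protein near the site of peptide bond formation, fell most (chr19:11770415-11774956). It read 9.09, 9.32, 8.97 and 9.55 on the B arrays, against 10.04, 9.90 and 9.64 on the L arrays and 10.22, 9.97 and 10.16 on the P arrays. All B values were below all L and P values, and the L and P values overlapped. Against P the difference was -0.88 ± 0.18 (SE), 1.84-fold lower in B (limma adjusted p = 0.0166). Mrpl11, at the base of the stalk that recruits translation factors (chr19:4962152-4966995), read 9.40, 9.66, 9.16 and 9.67 in B, against 9.84, 9.93 and 10.04 in L and 10.34, 10.21 and 10.21 in P. The 3 groups did not overlap, with B lowest and P highest. It was 1.71-fold lower in B than in P (-0.78 ± 0.18, limma adjusted p = 0.0218).

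Mrps18b, 1 of the S18 family paralogues (chr17:35910380-35916440), read 9.23, 9.15, 9.06 and 8.95 in B, against 9.52, 9.69 and 9.43 in L and 9.94, 10.06 and 9.50 in P. B was again below every other array, and P3 lay within the L values. The difference between B and P was -0.74 ± 0.18 (limma adjusted p = 0.0294), but it was -0.48 (adjusted p = 0.128) by its brightest probe and -0.47 (adjusted p = 0.0785) on the authors' processed values, and neither passed. Mrpl46, of the central protuberance of the large subunit (chr7:78775341-78783089), read 9.90, 9.70, 9.93 and 9.70 in B, against 10.39, 10.37 and 10.20 in L and 10.65, 10.25 and 10.42 in P. B was separate from both groups, which overlapped each other, and the difference from P was -0.64 ± 0.17 (limma adjusted p = 0.0348). With median scaling it was -0.72 and did not pass (adjusted p = 0.0585).

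Mrpl37, a large-subunit protein without a bacterial counterpart (chr4:107055874-107066866), read 9.32, 8.78, 9.04 and 9.05 in B, against 9.54, 9.60 and 9.50 in L and 9.61, 9.81 and 9.55 in P. All B values were below all others, and L and P overlapped. Its other probe fell by a similar amount (-0.57, against -0.61 for the probe tested, limma adjusted p = 0.0479). Mrpl21, which has a bacterial counterpart (chr19:3282997-3292837), read 11.08, 11.18, 11.16 and 11.52 in B, against 11.71, 11.65 and 11.43 in L and 11.89, 11.78 and 11.81 in P. Here B4 reached above the lowest L array, but all B values were below all P values (-0.59 ± 0.16, limma adjusted p = 0.0424). With median scaling the difference of Mrpl21 was -0.76 and did not pass (adjusted p = 0.0513).

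**Figure D3:**
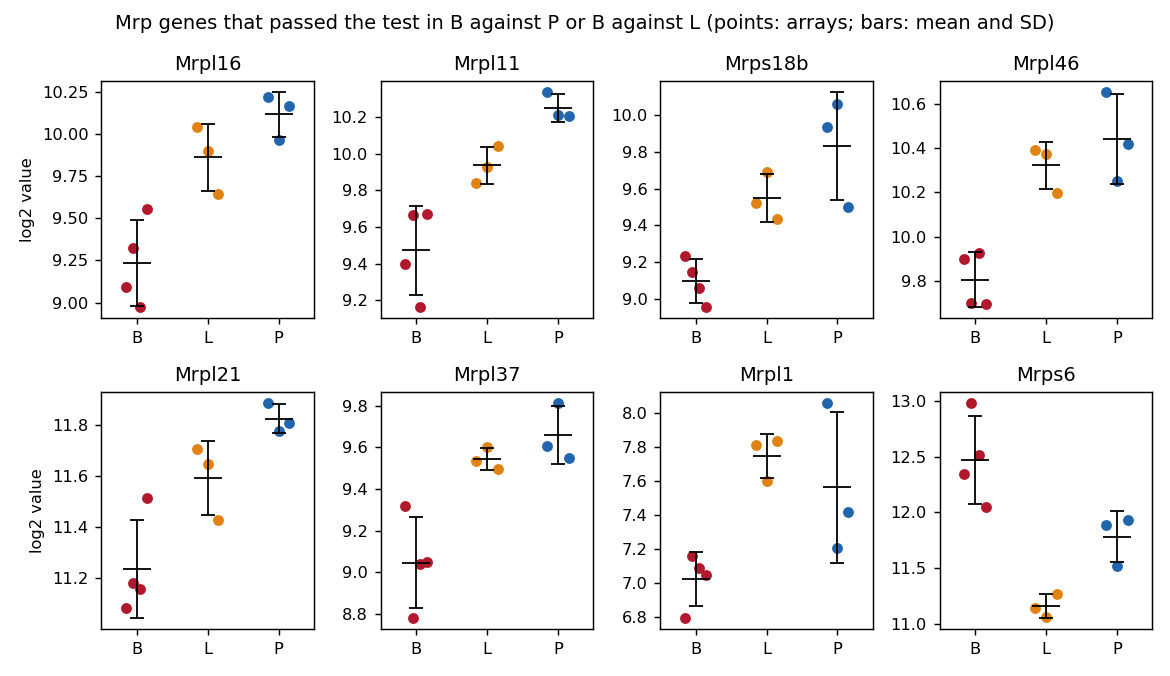
Log2 values (y axis) of the 8 Mrp genes that passed the test in B against P or B against L, for the B, L and P arrays (x axis); points are arrays, horizontal lines means and bars SD, and each panel has its own y range. B is lowest in all panels but that of Mrps6, where B is highest and L lowest.

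These calls depended on single arrays, as did those over all genes. Without P1 none of the 73 genes passed, when 1.56% of all genes were called lower (6.91% with all arrays), while the median difference was -0.26 and 61 genes were below 0. Without B1 or without P2 only Mrpl16 passed (3.51% and 2.71% of all genes lower), and without P3 only Mrps18b (2.02%). Without B2 the 6 genes called were Mrpl11, Mrpl15, Mrpl16, Mrpl38, Mrps18b and Mrps26 (6.52%), and without B3 they were Mrpl11, Mrpl16, Mrpl46 and Mrps18b (5.96%). Without B4, Mrpl11, Mrpl16, Mrpl21 and Mrpl36 passed as lower (7.16%) and Mrps6 passed as higher, as did 749 of all 9352 genes tested.

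The genes next in order did not pass the test. Mrpl38, of the central protuberance, differed by -0.71 (adjusted p = 0.0532). Mrps25, a small-subunit protein, differed by -0.68 (0.0553), Mrps30, which structures place in the large subunit despite its name, by -0.51 (0.0596), Mrpl20 by -0.57 (0.0597) and Mrpl47, at the polypeptide exit, by -0.62 (0.0609).

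By structural class, the bacterial-type and the mitochondria-specific proteins of the large subunit had similar medians in B against P (-0.40 over 27 genes, 3 of them called lower, and -0.38 over 20, 2 called lower). The mitochondria-specific proteins of the small subunit had a median of -0.39 over 9 genes with 0 called, and 8 of the 9 were below 0. The bacterial-type proteins of the small subunit had the smallest median, -0.13 over 15 genes, with 12 below 0 and 0 called. Mrps18a and Mrps18b, the S18 paralogues outside these classes, were both below 0. Over all genes 6.91% were called lower, and the difference between the classes was not tested. By site on the large subunit, the 5 proteins of the stalk and its base had a median of -0.39 (Mrpl11 called), the 6 at the polypeptide exit -0.41 (0 called) and the 6 of the central protuberance -0.35 (Mrpl46 called).

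**Figure D4:**
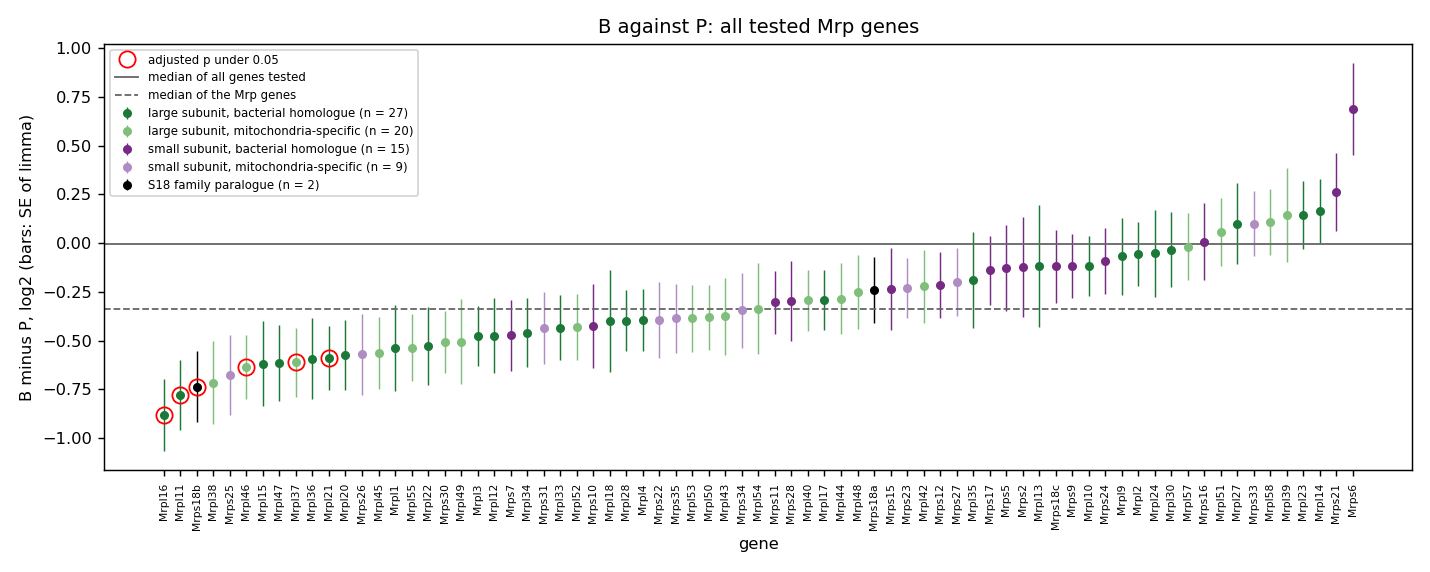
Log2 difference between B and P (y axis) for the 73 tested Mrp genes in rank order (x axis), coloured by structural class, with bars for the SE of limma and red rings for adjusted p under 0.05. The dashed line is the Mrp median (-0.34) and the solid line the median of all genes (-0.01); 10 genes lie above 0, and Mrps6 is furthest up at 0.69.

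Different probes of a gene mostly gave the same direction. Of 27 genes with at least 2 probes tested in B against P, all probes had the same sign for 24, and the median range between probes was 0.14. The exceptions were Mrpl10, Mrpl9 and Mrpl51, of which Mrpl51 had the widest range (0.69). In the fit on every probe, 113 Mrp probes were tested, 9 were called lower and 0 higher (6.02% and 6.27% of all probes, 12.3% in all), and 99 were below 0. Of the 9, 1 belonged to Mrps10 (-0.61) and 1 to Mrps25 (-0.66), genes whose most variable probe did not pass. The probes of Mrpl38 did not match in size, with -0.71 for the dim probe tested and -0.08 for its brighter one.

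B against L asks how brain-derived and lung-derived sublines differ. Here 1 Mrp gene rose, 1 fell and 71 did not pass (limma, 9423 genes tested), whereas 8.07% of all genes passed, 3.83% as higher and 4.23% as lower. The difference was below 0 for 60 of 73 (82.2%, against 50.1% of all genes). At an unadjusted p under 0.05, 20 were lower (27.4%, against 13% of all genes) and 2 were higher (12.7% of all genes were). The median was -0.23 over the Mrp genes, against 0.00 over all genes. Every B array was below every L array for 28 of the 73 (12.9% of all genes), and above every L array for Mrps6, Mrps21 and Mrpl51 (12%). The probe of Mrpl51 was not detected on any L array, so this gene entered the comparison through B alone.

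Mrps6, a small-subunit protein with a bacterial counterpart (chr16:92058336-92112227), was the Mrp gene that rose. It read 12.34, 12.98, 12.51 and 12.04 on the B arrays, against 11.14, 11.06 and 11.27 on the L arrays and 11.89, 11.52 and 11.93 on the P arrays. The 3 groups did not overlap, with B highest and L lowest. In B it was 2.48-fold higher than in L (1.31 ± 0.22, limma adjusted p = 0.0115). This call was lost without L1 (1.30, adjusted p = 0.056) and without L2 (1.26, adjusted p = 0.070). Of all 9423 genes tested, 361 were called higher with all arrays, 75 without L1 and 52 without L2. Against P the difference in B was 0.69 (adjusted p = 0.0770) and that in L was -0.62 (adjusted p = 0.134), and neither passed. A single probe reads Mrps6. The gene overlaps Slc5a3, a transporter of myo-inositol, annotated at chr16:92058322-92087473, and the Slc5a3 probe was not detected on any array. The part of the shared locus in the Mrps6 value was not tested.

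Mrpl1, of the mobile stalk beside the exit site for tRNA (chr5:96209498-96266727), fell. It read 6.80, 7.16, 7.09 and 7.05 in B, against 7.81, 7.60 and 7.83 in L and 8.06, 7.21 and 7.42 in P. B was below every L and P array, and P1 stood well above P2 and P3. In B it was 1.65-fold lower than in L (-0.72 ± 0.16, limma adjusted p = 0.0293), and another, brighter probe differed by -0.67 (adjusted p = 0.0403 in the fit on every probe). The call was lost without B1 (2.12% of all genes then lower) and without any 1 of the L arrays (0.838% to 1.37%). Over every probe, 1 Mrp probe was called higher and 2 lower (3.09% and 3.31% of all probes, 6.4% in all), and both lower ones read Mrpl1. In a fit with the replicate number as a block, where B4 has no partner and adds nothing to the difference, Mrps6 stayed higher (1.45, adjusted p = 0.0231) and Mrpl1 did not pass (-0.73, adjusted p = 0.0653).

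None of the genes next in order passed in B against L. Mrpl46 differed by -0.52 (adjusted p = 0.0715), Mrps10, a small-subunit protein with a bacterial counterpart, by -0.51 (0.0727), Mrpl45, which in mammals tethers the ribosome to the inner membrane, by -0.54 (0.0742), and Mrpl16 by -0.62 (0.0756). Mrpl51 averaged 6.07 ± 0.20 in B (n = 4) and 5.58 ± 0.08 in L (SD, n = 3), where its probe was not detected on any array, so no fold is given. By class, the medians in B against L were -0.28 and -0.24 for the bacterial-type and mitochondria-specific proteins of the large subunit, -0.26 for the mitochondria-specific proteins of the small subunit and -0.01 for its bacterial-type proteins.

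L against P asks how lung-derived sublines differ from those of the primary tumour. No Mrp gene passed in either direction (limma, 8974 genes tested, lowest Mrp adjusted p 0.134), and 0.412% of all genes did, 0.0334% as lower and 0.379% as higher. At an unadjusted p under 0.05, 5 Mrp genes were lower (6.49% of all genes were) and 0 higher (8.3%), and the methods' t-test after adjustment also called 0. The difference was below 0 for 58 of 73 (79.5%, against 51.2%), with a median of -0.11, against -0.01 over all genes. Without P1 that median was -0.04 and 47 genes were below 0. Every L array was below every P array for 13 genes (9.93% of all genes) and above every P array for 0 (10.3%). The 5 with the lowest p were Mrps6, Mrpl38, Mrps11, Mrpl51 and Mrpl34. The probe of Mrpl51 was not detected on any L array, so this gene entered the comparison through P alone.

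Mrps11, a small-subunit protein, read 9.47, 9.35 and 9.24 in L, against 9.89, 9.79 and 9.77 in P, and did not overlap between them (-0.46, adjusted p = 0.192). Mrpl34 read 10.19, 10.32 and 10.50 in L, against 10.65, 10.74 and 10.84 in P (-0.41, adjusted p = 0.256). Mrpl38 averaged 7.90 ± 0.18 in L and 8.43 ± 0.08 in P (SD, n = 3 each), but its brighter probe differed in the opposite direction (0.27), and neither probe passed.

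The comparisons share arrays, so their values are not independent. By group means, 57 of the 73 Mrp genes were lowest in B (40.3% of all genes), 53 were highest in P (35.1%), and 47 followed the order B, L, P from low to high (24.9%). For 25 of the 73, every B array was below every L and P array (8.68% of all genes).

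The Mrp genes varied together across the arrays. Over the 69 genes detected on every array, the median Pearson r between pairs was 0.38 across the 10 arrays, against 0.00 for all genes. Once group means were removed it was 0.16 for the Mrp genes, and the same was not computed for all genes. As the arrays share groups, these are descriptions. With the median of the other Mrp genes, 44 genes had r above 0.5. Mrps25 (0.91), Mrpl11 (0.90), Mrpl46 (0.90) and Mrps18b (0.90) were at the top, and 8 genes were below 0, led by Mrps6 (-0.55), Mrps21 (-0.32), Mrpl57 (-0.28) and Mrpl14 (-0.19). The mean level of a gene's probe and its difference between B and P were nearly unrelated (r = 0.09 over 73 genes, which are not independent).

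The Mrp genes with and without each promoter motif were set side by side, with no test. The 26 tested genes with an ETS match had a median of -0.27 in B against P and the 39 without one -0.30. The 12 with an NRF1 match had a median of -0.09, with 9 below 0 and 0 called. The 53 without one had -0.38, with 46 below 0 and 6 called. Over all genes 6.91% were called lower, and at that share a count of 0 among 12 genes says little. The 5 with an E-box, Mrpl37 among them, had a median of -0.57 with all 5 below 0, and the 60 without one -0.29. For YY1 the medians were -0.23 with a match (8 genes) and -0.38 without, for the GC-box -0.24 (31) and -0.41, and for the CCAAT box -0.40 (24) and -0.25. Of the head-to-head pairs, 15 had a tested neighbour that is no Mrp gene. The median difference was -0.20 for the Mrp genes and -0.28 for their neighbours. Of these neighbours 2 were called lower (Twnk and Hira) and 1 higher (Klc4), against 6.91% and 7.53% of all genes. Mrps11, opposite Mrpl46, differed by -0.30 between B and P and did not pass.

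Other parts of the mitochondrial translation machinery were read from lists of genes. Over all genes in B against P, 6.91% were called lower and 7.53% higher. The counts called in the lists were not tested against these shares. Of 4 tested mitoribosomal proteins under other names, Ptcd3, a pentatricopeptide protein of the small subunit, fell. It averaged 8.64 ± 0.09 in B, 9.36 ± 0.24 in L and 9.48 ± 0.26 in P (-0.84 against P, adjusted p = 0.0155). Chchd1 (-0.58), Gadd45gip1 (-0.33) and Dap3 (-0.23) did not pass. Of 20 genes for assembly and ribosomal RNA modification 2 fell and 0 rose, with a list median of -0.07. These were Noa1, a GTPase needed for mitochondrial translation, at 10.08 ± 0.20 in B, 11.22 ± 0.17 in L and 11.43 ± 0.10 in P (-1.35 against P, adjusted p = 0.00267), and Gtpbp10, an assembly factor of the large subunit (-0.76, adjusted p = 0.0417).

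Of 15 translation factors 2 fell and 0 rose, with a median of -0.35. They were Gfm1, an elongation factor (-0.77, adjusted p = 0.0178), and Mtif3, an initiation factor (-0.64, adjusted p = 0.0291), while Tufm, the elongation factor that delivers tRNA, differed by -0.58 (adjusted p = 0.0532). Of 13 mitochondrial tRNA synthetases 1 fell (Mars2, for methionine, -1.54, adjusted p = 0.00243) with a list median of -0.31. Of 12 genes for mitochondrial transcription and DNA maintenance 3 fell, with a median of -0.18. These were Elac2, which trims tRNA ends (-1.05), Twnk (-0.85) and Polg, the mitochondrial DNA polymerase (-0.72), whereas Tfam, which packages mitochondrial DNA, differed by 0.00.

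Of 10 regulators of nuclear genes for mitochondria 2 fell, with a median of -0.52. Pprc1, a coactivator of the PGC-1 family, averaged 9.16 ± 0.29 in B and 10.28 ± 0.06 in P (-1.12, adjusted p = 0.00849), and was lower in B than in L too (-0.84, adjusted p = 0.0358). Myc, a transcription factor of cell growth, averaged 7.01 ± 0.20 in B, 7.80 ± 0.13 in L and 7.80 ± 0.04 in P (-0.79 against P, adjusted p = 0.0163). Across the 10 arrays, the Mrp median had a Pearson r of 0.88 with Myc, 0.87 with Tufm, 0.85 with Pprc1 and 0.42 with Gabpa, the DNA-binding subunit of GABP, and of 0.30 with Nrf1 and -0.30 with Yy1. Group differences enter all of these values.

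Of 19 import genes 6 fell and 1 rose, with a median of -0.49 (over all genes, 6.91% fell and 7.53% rose). The falls included Tomm40, the channel of the outer membrane (-1.04, adjusted p = 0.00985), and Hspa9, the chaperone that pulls proteins into the matrix (-0.59, adjusted p = 0.0315). Dnajc19, a partner of that chaperone, rose (0.75, adjusted p = 0.0319). By contrast, the 53 cytosolic ribosomal proteins had a median of -0.06 with 3 lower (Rps19, Rpl29 and Rpl38) and 1 higher (Rpl22), and the 82 genes of the respiratory chain and ATP synthase a median of -0.06 with 4 lower and 1 higher. Of the respiratory list, Ndufaf4, an assembly factor of complex I, fell by 1.17 and Sdhc, a subunit of complex II, rose (0.59). The 29 genes of cytosolic ribosome biogenesis had the lowest median, -0.85, with 18 lower and 0 higher, among them Rrp1b (-1.52) and Heatr1 (-1.36).

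**Figure D5:**
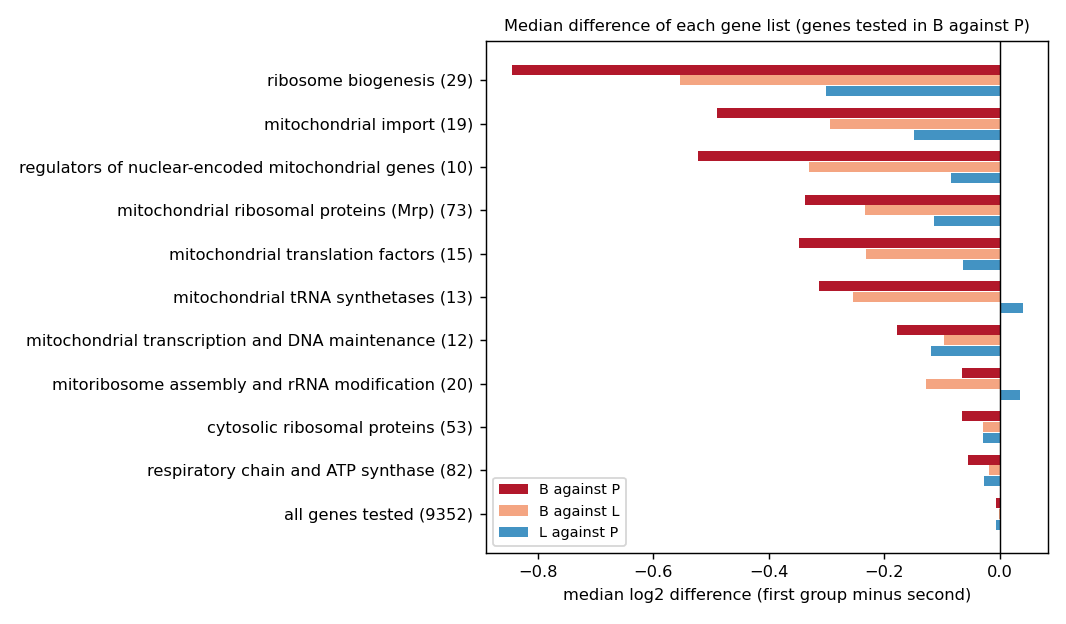
Median log2 difference (x axis) of the Mrp genes, of 9 other gene lists and of all genes tested (y axis, with the number of genes tested in B against P), for B against P, B against L and L against P. In B against P the Mrp median of -0.34 lies near that of the translation factors (-0.35), and the cytosolic ribosomal proteins (-0.06) lie near all genes (-0.01).

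In B against L the same lists had medians of -0.55 for ribosome biogenesis (9 lower of 29), -0.47 for the mitoribosomal proteins under other names (1 lower of 4), -0.33 for the regulators (2 lower of 10), -0.29 for import (1 lower and 1 higher of 20), -0.25 for the tRNA synthetases (2 lower of 13), -0.23 for the translation factors (1 lower of 15), -0.13 for assembly (1 lower of 20), -0.10 for transcription and DNA maintenance (1 lower of 12), -0.03 for the cytosolic ribosomal proteins (1 lower of 53) and -0.02 for the respiratory chain (1 lower of 83). Over all genes in B against L, 4.23% were lower and 3.83% higher. Noa1 was again among the list genes that fell (-1.14, adjusted p = 0.00765). In L against P no gene of these lists passed (0.412% of all genes did). The medians there lay between -0.30 (ribosome biogenesis) and 0.04 (tRNA synthetases).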

How the data were processed

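The Mrp genes and the other gene lists were chosen with earlier results of these data known. The authors extracted mean bead intensities per probe with GenomeStudio and deposited them without normalisation, together with detection p-values. The authors also deposited processed values on a scale close to log2 (lumi, with a variance-stabilising transformation and robust spline normalisation; version not given in the sources used here), which served as an alternative. Background correction, with the noise inferred from the detection p-values, and quantile normalisation were done on the intensities with neqc of limma 3.58.1 (R 4.3.3, offset 16). Probes were named from the platform annotation, with symbols updated through RefSeq (GRCm38.p6) by gene ID. A probe counted as detected at a detection p of 0.01 or less. Probes with 1 gene symbol were used, and a gene was read by its probe of largest interquartile range among those that either group compared had detected on some array. Each pair of groups was tested on its own arrays with the moderated two-sided test of limma, with Benjamini-Hochberg adjustment over all genes tested and a threshold of 0.05. The test was checked on simulated data with independent noise and planted differences larger than those of nearly all Mrp genes. That check does not cover smaller differences. No source says what a replicate number marks, and the main tests took no account of it. Deviations from the group means correlated at 0.13 to 0.24 in 3 of 3 same-numbered pairs of B and L. For B or L with P, 0 of 3 and 1 of 3 same-numbered pairs were over 0.1. Of the differently numbered pairs of B and L, 0 of 9 were over 0.1 (highest 0.09). Differently numbered B and P arrays reached 0.19, so these values cannot settle whether a number marks a pair. Each subline gives 1 array, and the number of arrays limits the precision. The rule for named genes took every called Mrp gene, the 5 with the lowest p among the others in each comparison, Mrp genes with no detected probe, the 3 brightest and 3 dimmest probes and up to 4 genes from each other list. Genes named for correlation, disagreement between probes or a neighbouring start site were chosen after their values were seen. Alternatives were other background corrections and scalings, no filter on dim probes, another choice of probe, all arrays in 1 model, the methods' t-test with a random variance model, a replicate block and each array left out.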

Additional observations from a re-analysis of the deposited data

How the results depend on the processing

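The median difference of the Mrp genes was below 0 in every comparison under all alternatives run. In B against P (-0.34) it lay between -0.39 and -0.29 across the other settings and between -0.37 and -0.26 with 1 array left out. In B against L (-0.23) it was -0.18 without background correction, -0.33 with median scaling, -0.13 on the authors' processed values, -0.17 with the probe of highest mean, and -0.29 to -0.18 with 1 array left out. In L against P (-0.11) it was -0.16 to -0.04 with 1 array left out. The counts of calls moved far more. The 6 Mrp genes lower in B against P became 14 without background correction (8.55% of all genes lower, against 6.91%), 13 with an offset of 50 (8.43%), 17 on the authors' values (8.77%), 16 with all 10 arrays in 1 model (10.5%) and 1 by the methods' t-test at an unadjusted p under 0.001 (2.52%), and 0 to 6 with 1 array left out (1.56% to 7.16%). The count higher in B against P (0, with 704 of all 9352 genes higher) was 1 without background correction (851 of 9352). It was 1 with all arrays in 1 model (1041 of 9352). With 1 array left out it was 0 to 1, and the 1 was Mrps6 without B4 (749 of 9352). In B against L the 1 lower gene (4.23% of all genes) became 4 without background correction (5.33%), 3 with an offset of 50 (5.1%), 3 with no filter on dim probes (1.94%), 3 with all arrays in 1 model (6.2%), 7 on the authors' values (5.25%), 0 with median scaling (3.39%) and 0 by the methods' t-test at that p (2.05%), and 0 to 2 with 1 array left out (0.838% to 4.65%). Over every detected probe 2 probes were lower, both of Mrpl1. The 1 higher gene of B against L (361 of all 9423 genes higher) was 0 to 1 with 1 array left out. It was 0 without L1 and without L2, when 75 and 52 of all genes were higher. In L against P, 1 Mrp gene (Mrps6) was lower without background correction (0.345% of all genes lower). The difference of Mrpl38 in L against P turned to 0.27 with the probe of highest mean. The cause of these changes was not tested.

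Deviations of arrays with the same replicate number correlated at -0.17 to 0.03 in B against P and -0.15 to 0.13 in L against P. Whether those arrays share more than a number was not tested. With a replicate block, 1 Mrp gene (Mrpl16) was lower in B against P (3.23% of all genes, median -0.31). In B against L 0 were lower (3.7% of all genes) and 1 was higher (315 of all 9423 genes tested), with a median of -0.21. In L against P 0 passed, and 9 of all 8974 genes did, all as higher.

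With 3 or 4 arrays a group the test has little precision for differences of this size, as the median SE was 0.18 in B against P. Of the values of named genes under the alternatives, 294 kept their direction and side of the threshold, 38 newly passed, 46 no longer passed and 1 changed sign.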
